A study of Mus musculus with 10 samples.

Results

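De novo lipogenesis and its supply of reducing power were followed through 33 mouse genes in regenerating liver. The genes were listed by name with earlier results of these data known, so the list is not blind to them. Their rows were found in both deposited liver tables, each of which held 55487 gene identifiers. All 33 were present in both tables, and all 33 passed the filter on low counts in both. They fall into 5 roles: 6 genes that supply acetyl-CoA and malonyl-CoA, 10 for the synthase, elongases and desaturases, 7 for acyl activation and glycerolipid assembly, 4 regulators, and 6 for NADPH supply together with the liver pyruvate kinase. In the diet experiment, C57BL/6J mice labelled male and 8 weeks old were kept for 7 days on chow or on a high-fat diet (HFD) and then had partial hepatectomy (PHx), in which much of the liver is cut away and the rest grows back; liver was collected 40 hours later, with 3 libraries per group. In the inhibitor experiment, mice of the same stated strain, sex and age received SSO at 40 mg/kg or its solvent (vehicle) 1 day before PHx, and liver was collected at 48 hours, giving 4 libraries for each arm. SSO is not spelled out by the submitters; the letters usually mean sulfosuccinimidyl oleate, which blocks uptake of fatty acids through CD36. Every mouse in these 4 groups underwent PHx, so the values hold no unoperated liver. The design text names 3 mice per diet group, whereas the inhibitor labels state 8 mice per group beside 4 libraries; where libraries are not separate animals, p-values measure only the spread between libraries.

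De novo lipogenesis builds fatty acids from carbohydrate carbon. Citrate leaves the mitochondrion and is split to acetyl-CoA, which is carboxylated to malonyl-CoA and condensed by fatty acid synthase at the expense of NADPH; elongases and desaturases then shape the chain, and acyltransferases place it on glycerol. In liver the enzymes are induced together by insulin through the transcription factor SREBP, encoded by Srebf1, and by glucose through ChREBP, encoded by Mlxipl, while fasting and polyunsaturated fatty acids lower them. NADPH comes mainly from malic enzyme and from the oxidative branch of the pentose phosphate pathway.

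Many promoters of these genes are known to pair an SREBP site with a box bound by the factor NF-Y, whose core letters are CCAAT. The 150 bases before the transcription start are shown for 3 genes that rose with SSO (Fasn, Acss2 and Gpam), for Thrsp, whose SSO and vehicle libraries lay furthest apart, and, for contrast, for Elovl6, which also rose and holds no such box. They are written 5′ to 3′ on the gene's own strand from RefSeq on GRCm38.p6, at chr11:120824548-120824697 (minus strand), chr2:155517893-155518042 (plus), chr19:55127239-55127388 (minus), chr7:97417551-97417700 (minus) and chr3:129532236-129532385 (plus). Capitals mark CCAAT or its reverse complement ATTGG; in Fasn one match on each strand overlaps.
Fasn: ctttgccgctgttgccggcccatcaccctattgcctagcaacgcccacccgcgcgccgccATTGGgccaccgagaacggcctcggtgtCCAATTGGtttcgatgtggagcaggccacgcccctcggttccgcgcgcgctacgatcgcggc
Acss2: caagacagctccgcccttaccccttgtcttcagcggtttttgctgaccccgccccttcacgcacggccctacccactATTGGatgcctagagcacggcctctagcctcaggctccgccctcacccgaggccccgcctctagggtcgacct
Gpam: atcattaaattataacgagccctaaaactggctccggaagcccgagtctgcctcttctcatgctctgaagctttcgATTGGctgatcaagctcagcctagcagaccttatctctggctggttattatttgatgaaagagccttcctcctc
Thrsp: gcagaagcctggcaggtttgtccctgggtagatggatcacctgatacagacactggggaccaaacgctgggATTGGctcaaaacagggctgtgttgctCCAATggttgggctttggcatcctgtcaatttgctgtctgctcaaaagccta
Elovl6: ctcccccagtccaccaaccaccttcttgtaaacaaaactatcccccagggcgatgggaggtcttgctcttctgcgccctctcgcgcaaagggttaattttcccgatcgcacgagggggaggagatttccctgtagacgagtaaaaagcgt
In Fasn the matches began 90, 62 and 59 bases before the start, in Acss2 73, in Gpam 74 and in Thrsp 79 and 52 bases before it. RefSeq windows from 250 bases before to 50 after a start were matched for 27 of the 33 genes, which have 36 such windows. Searched on both strands, CCAAT was present in 18 of the 36 windows (50%), against 37.4% of all 32851 windows of the same length. The GC box GGGCGG was present in 52.8% of the members' windows and 35.7% of all windows, and the E-box CACGTG in 8.33% and 7.15%. The sterol response element, searched as TCACNCCAC, was present in 1 member window, of Mlxipl (2.78%, against 1.24% of all windows). Gpam has a further RefSeq window, whose 150 bases before the start lie at chr19:55099478-55099627, and that window held no CCAAT. Among the genes that rose with SSO, the windows of Aacs, Elovl6 and Mid1ip1 held no CCAAT, and that of Acly held it 38 bases after the start. These matches describe letters and are not binding data.

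Some features of the libraries bear on the values below. Levels are given as CPM, the count per 1000000 counts of a library, with library sizes scaled by the trimmed-mean method (TMM). Library totals ran from 31.9 to 39.9 M counts in the diet table and from 25.2 to 30.4 M in the inhibitor table. Hepatocyte markers summed to 71150 CPM or more in all 14 libraries, and the adipocyte-defining transcripts Adipoq, Lep and Retn were at 0 in all of them. The full adipocyte list summed to 22.5 to 83.3 CPM. The female transcript Xist measured 698 to 1772 CPM and the Y-linked Ddx3y 0 counts in all 8 inhibitor libraries, which goes against their male label, whereas the diet libraries had Xist at 0 to 0.620 CPM and Ddx3y at 55.0 to 76.3 CPM. Vehicle libraries differed among themselves. The summed level of 6 monocyte and neutrophil markers was 83.5 and 118 CPM in vehicle 1 and 3 but 5.99 and 10.0 CPM in vehicle 2 and 4, and the summed markers of other non-hepatocyte cells split the same way. In vehicle 1 and 3 against 2 and 4, Kupffer cell and macrophage markers summed to 567 and 457 against 137 and 131 CPM, sinusoidal endothelial markers to 257 and 242 against 123 and 119 CPM, stellate cell markers to 304 and 262 against 148 and 165 CPM, and cholangiocyte markers to 134 and 163 against 44.6 and 41.3 CPM. Mitochondrially encoded transcripts made up 4.99%, 22.5%, 11.5% and 9.15% of the total in vehicle 1 to 4 and 15.2% to 17.6% of each SSO total. Vehicle 2 also had the fewest genes with counts, 18104 against 19639 to 20864 in the other inhibitor libraries. Its TMM factor, 0.837, was the lowest of that experiment. Chow libraries differed too. In chow 1 to 3, Kupffer cell and macrophage markers summed to 116, 228 and 272 CPM. Sinusoidal endothelial markers summed to 111, 146 and 182 CPM there, and monocyte and neutrophil markers to 3.44, 6.83 and 11.4 CPM. Stellate cell markers (339, 316 and 368 CPM) and cholangiocyte markers (88.1, 79.2 and 56.95 CPM) did not follow that order. The part of these cells in the diet values was not tested.

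With SSO, 7 of the 33 genes rose and 0 fell at an adjusted p under 0.05 (edgeR quasi-likelihood test, Benjamini-Hochberg over 15788 genes), where 0.317% of all genes tested rose and 0.133% fell. The 7 were Acly, Acss2 and Aacs among the precursor enzymes, Fasn and Elovl6 among the chain builders, the acyltransferase Gpam and the regulator Mid1ip1, with 2.48-fold to 5.81-fold higher levels. In 17 of the 33, every SSO library lay above every vehicle library, against 6.14% of all genes, and in 0 did every SSO library lie below, against 5.62%. The median log2 fold change was 0.83 over the 33 genes and -0.04 over all genes tested, and 28 of the 33 values were above 0 (25 with scaling by library size alone). In whole tissue, more transcript per hepatocyte and more hepatocyte RNA in the sample cannot be told apart; the summed hepatocyte markers measured 71480 to 110600 CPM in vehicle and 71910 to 93730 CPM in SSO, and 0 of 9 of them were called.

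**Figure D1:**
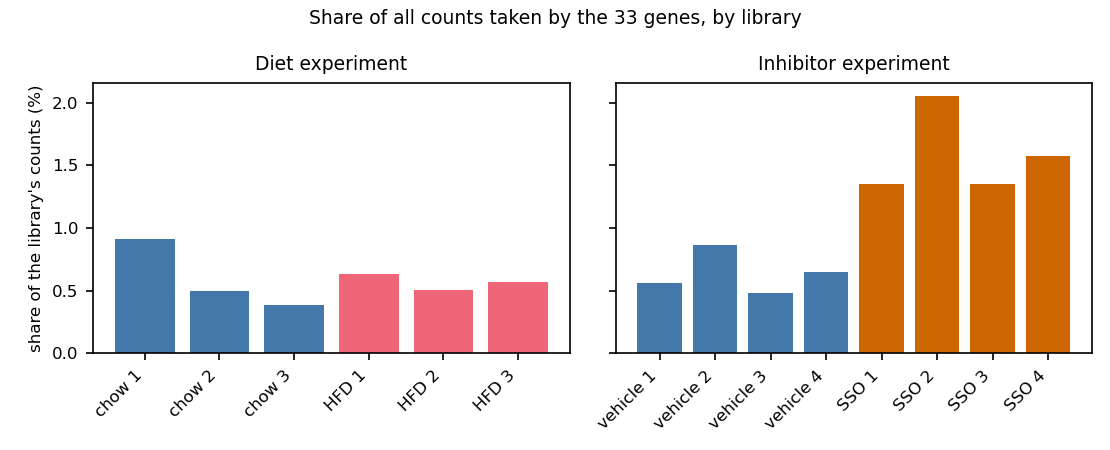
Share of each library's counts (vertical axis, percent) taken by the 33 genes together, 1 bar per library, with control libraries in blue and HFD or SSO libraries in red or orange. The 4 SSO libraries sit between 1.35% and 2.06%, above the vehicle libraries at 0.482% to 0.867%, while chow 1 at 0.910% stands above chow 2 and 3 and the HFD libraries.

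Together the 33 genes took 0.560%, 0.867%, 0.482% and 0.645% of the total in vehicle 1 to 4 and 1.35%, 2.06%, 1.35% and 1.57% in SSO 1 to 4. The groups did not overlap. SSO 2 was the highest SSO library in 20 of the 33 genes, whereas it was highest in 31.4% of all genes, and vehicle 2 was the highest vehicle library in 23 of the 33, against 31.0% of all genes. Vehicle 3 was the lowest of its group in 23 of the 33, against 22.6% of all genes.

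**Figure D2:**
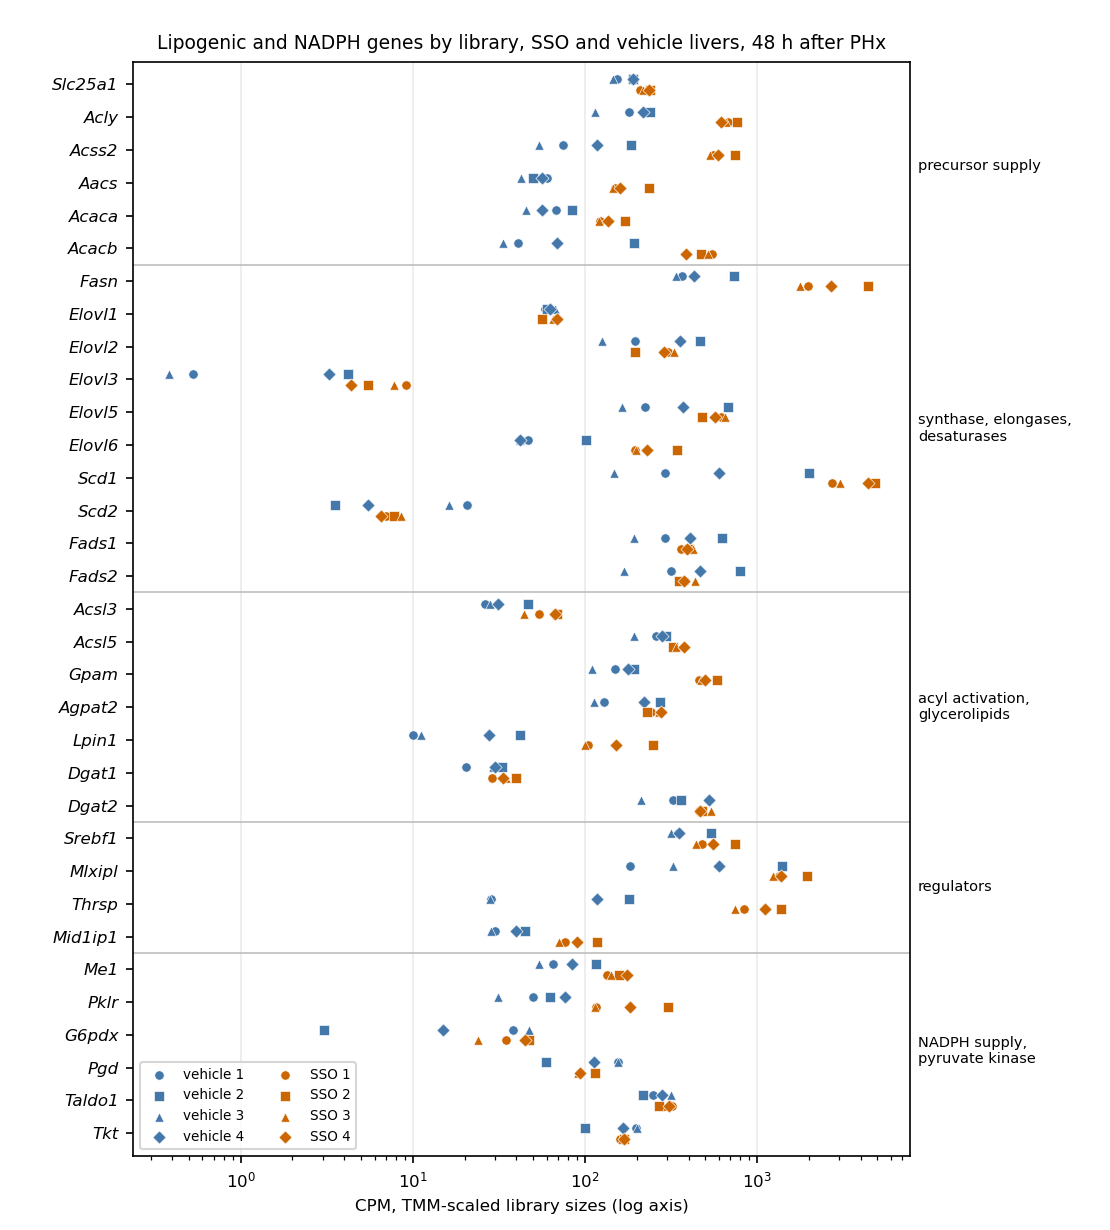
Level of each of the 33 genes (rows, grouped by role) in each library of the inhibitor experiment, in CPM on a log axis; blue points are the 4 vehicle and orange points the 4 SSO libraries, with a marker shape for each library number. All 6 precursor genes have SSO points to the right of every vehicle point, while Fads1, Fads2, Tkt and Taldo1 overlap.

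In precursor supply 3 of 6 genes rose, in all 6 the groups did not overlap, and the median log2 fold change was 1.79 (0.41 to 2.53). Over all genes, for this and the roles below, 0.317% rose and 6.14% had every SSO library above every vehicle library. Acly, the ATP citrate lyase that releases acetyl-CoA in the cytosol, measured 179, 239, 115 and 218 CPM in vehicle 1 to 4 and 678, 760.2, 656 and 614 CPM in SSO 1 to 4 (log2 fold change 1.85, SE 0.25, edgeR adjusted p = 0.0196). The lowest SSO library was 2.57 times the highest vehicle library. Acss2, which makes acetyl-CoA from acetate, measured 74.4, 185, 53.8 and 118 CPM in vehicle and 556, 744, 535 and 593 CPM in SSO (log2 fold change 2.50, SE 0.36, edgeR adjusted p = 0.0269). All SSO libraries were above all vehicle libraries, whose own values spread 3.44-fold. Of the exon length of Acss2, 9.12% overlaps a gene on the other strand, whose reads cannot be separated because the strand setting is not given in the sources used here. Aacs, which turns the ketone body acetoacetate into a lipid precursor, measured 60.6, 50.1, 42.6 and 56.1 CPM in vehicle and 149, 236, 146 and 161 CPM in SSO (log2 fold change 1.72, SE 0.21, edgeR adjusted p = 0.0181). SSO 2 was the highest, and the vehicle libraries were close together.

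The remaining precursor genes did not pass the threshold. Acaca, the cytosolic acetyl-CoA carboxylase that commits carbon to fatty acids, measured 67.7, 83.7, 45.7 and 56.2 CPM in vehicle and 122, 172, 121 and 136 CPM in SSO (log2 fold change 1.12, SE 0.21, edgeR adjusted p = 0.0602). Acacb, the carboxylase at the mitochondrial surface whose product restrains fatty acid import, measured 40.6, 192, 33.5 and 68.7 CPM in vehicle and 548, 475, 518 and 388 CPM in SSO (log2 fold change 2.53, SE 0.52, edgeR adjusted p = 0.0793). In both genes vehicle 2 was the highest of its group and still below every SSO library. Slc25a1, the carrier that exports citrate from mitochondria, differed least, at 169.7 ± 23.4 CPM in vehicle and 226 ± 14.5 CPM in SSO (SD, n = 4 each; log2 fold change 0.41, SE 0.17, edgeR adjusted p = 0.211).

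Among the synthase, elongases and desaturases, 2 of 10 genes rose, and the median log2 fold change was 0.37. Fasn, the fatty acid synthase, measured 365, 735, 336 and 429.6 CPM in vehicle and 1984, 4404, 1768 and 2683 CPM in SSO (log2 fold change 2.54, SE 0.38, edgeR adjusted p = 0.0313). The groups did not overlap, and SSO 2 was 2.49 times SSO 3. Elovl6, the elongase that extends palmitate, measured 47.0, 101, 41.8 and 42.1 CPM in vehicle and 194, 343, 198 and 229.7 CPM in SSO (log2 fold change 2.06, SE 0.33, edgeR adjusted p = 0.0369). Vehicle 2 stood above the other vehicle libraries and below every SSO library. Scd1, the main hepatic desaturase that makes oleate, measured 293, 1992, 148 and 605 CPM in vehicle and 2737, 4838, 3037 and 4384 CPM in SSO (log2 fold change 2.30, SE 0.71, edgeR adjusted p = 0.134). Its groups did not overlap, but the vehicle libraries spanned 13.4-fold and the difference did not pass the threshold. Elovl3, an elongase of saturated chains, was low, at 0.528, 4.22, 0.381 and 3.26 CPM in vehicle and 9.10, 5.50, 7.77 and 4.36 CPM in SSO (log2 fold change 1.69, SE 0.69, edgeR adjusted p = 0.21).

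The genes for polyunsaturated chains had values near 0 or wide spreads. Fads1 and Fads2, the desaturases of polyunsaturated fatty acids, had log2 fold changes of 0.06 and -0.18 (adjusted p 0.935 and 0.815 by edgeR), with intervals of 2 SE on either side from 0.669-fold to 1.61-fold and 0.515-fold to 1.504-fold. Elovl2 and Elovl5, which lengthen polyunsaturated chains, had values of -0.03 and 0.69 (0.972 and 0.334). In all 4 of these genes the SSO libraries lay inside or across the vehicle range, whose highest value came from vehicle 2 and lowest from vehicle 3. Elovl1, an elongase of very long chains, measured 62.2 ± 3.68 CPM in vehicle and 64.6 ± 5.55 CPM in SSO (SD, n = 4 each; log2 fold change 0.05, SE 0.13, edgeR adjusted p = 0.847), the tightest interval of the set, from 0.863-fold to 1.25-fold.

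Acyl activation and glycerolipid assembly held 1 gene that rose among 7, all 7 with values above 0, and a median log2 fold change of 0.47. Gpam, the mitochondrial acyltransferase that starts glycerolipid synthesis, measured 149.5, 194, 109 and 178 CPM in vehicle and 462, 586, 471 and 500.5 CPM in SSO (log2 fold change 1.68, SE 0.22, edgeR adjusted p = 0.0196). The lowest SSO library was 2.38 times the highest vehicle library, and the groups did not overlap. Lpin1, the phosphatidate phosphatase that is also a transcriptional coactivator, measured 10.1, 41.8, 11.2 and 27.6 CPM in vehicle and 105, 249, 100.4 and 152 CPM in SSO (log2 fold change 2.74, SE 0.51, edgeR adjusted p = 0.065). The groups did not overlap, and vehicle 1 and 3 were the lowest. Acsl3 and Acsl5, which attach coenzyme A to fatty acids, had log2 fold changes of 0.83 and 0.42 (adjusted p 0.111 and 0.253 by edgeR). For the later steps, Agpat2, Dgat1 and Dgat2 had values of 0.47, 0.28 and 0.45 (0.361, 0.389 and 0.353), and their groups overlapped.

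The 4 regulators differed in size of change. Mid1ip1, a protein that binds acetyl-CoA carboxylase and promotes its polymerisation, rose, from 29.96, 44.8, 28.6 and 40.0 CPM in vehicle to 76.6, 117, 71.1 and 90.3 CPM in SSO (log2 fold change 1.31, SE 0.21, edgeR adjusted p = 0.0369); 25.5% of its exon length overlaps a gene on the other strand. Thrsp, its close relative and a thyroid hormone responsive lipogenic protein, measured 28.5, 181, 28.1 and 118 CPM in vehicle and 835, 1386, 749.6 and 1108 CPM in SSO (log2 fold change 3.52, SE 0.63, edgeR adjusted p = 0.0528). The lowest SSO library was 4.14 times the highest vehicle library, and the adjusted p lay just over the threshold. Mlxipl measured 183, 1393, 326 and 601 CPM in vehicle and 1344, 1944, 1232 and 1380.0 CPM in SSO (log2 fold change 1.24, SE 0.53, edgeR adjusted p = 0.225), with vehicle 2 inside the SSO range and above 3 of the 4 SSO libraries. Srebf1, the transcript of the SREBP factor, measured 349, 542, 315 and 354 CPM in vehicle and 479.8, 742, 441 and 554 CPM in SSO (log2 fold change 0.51, SE 0.25, edgeR adjusted p = 0.281). The Srebf1 groups overlapped, and an interval of 2 SE on either side ran from 1.004-fold to 2.01-fold.

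In NADPH supply and pyruvate kinase 0 of 6 genes were called, and the median log2 fold change was 0.36. At an unadjusted p under 0.05 (edgeR), 2 of the 6 were higher, against 7.96% of all genes. Those 2 were Me1, the cytosolic malic enzyme, at 65.5, 116, 53.8 and 84.2 CPM in vehicle and 135, 158, 141 and 175 CPM in SSO (log2 fold change 0.93, SE 0.24, edgeR adjusted p = 0.109), and Pklr, the liver pyruvate kinase. Pklr measured 50.3, 63.0, 31.1 and 77.0 CPM in vehicle and 116, 305, 114 and 183 CPM in SSO (log2 fold change 1.70, SE 0.37, edgeR adjusted p = 0.0868), with SSO 2 the highest; 22.0% of its exon length overlaps a gene on the other strand. The groups of both genes did not overlap. G6pdx and Pgd, the dehydrogenases of the oxidative pentose phosphate branch, showed another pattern. G6pdx measured 38.2, 3.04, 47.3 and 14.9 CPM in vehicle and 34.9, 47.4, 23.8 and 44.99 CPM in SSO (log2 fold change 0.54, SE 0.65, edgeR adjusted p = 0.662); 13.6% of its exon length overlaps a gene on the other strand. Pgd measured 157, 59.1, 155 and 112 CPM in vehicle and 93.7, 115, 91.6 and 93.2 CPM in SSO (log2 fold change -0.30, SE 0.27, edgeR adjusted p = 0.561). Both were high in vehicle 1 and 3, low in vehicle 2, and overlapped between groups.

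**Figure D3:**
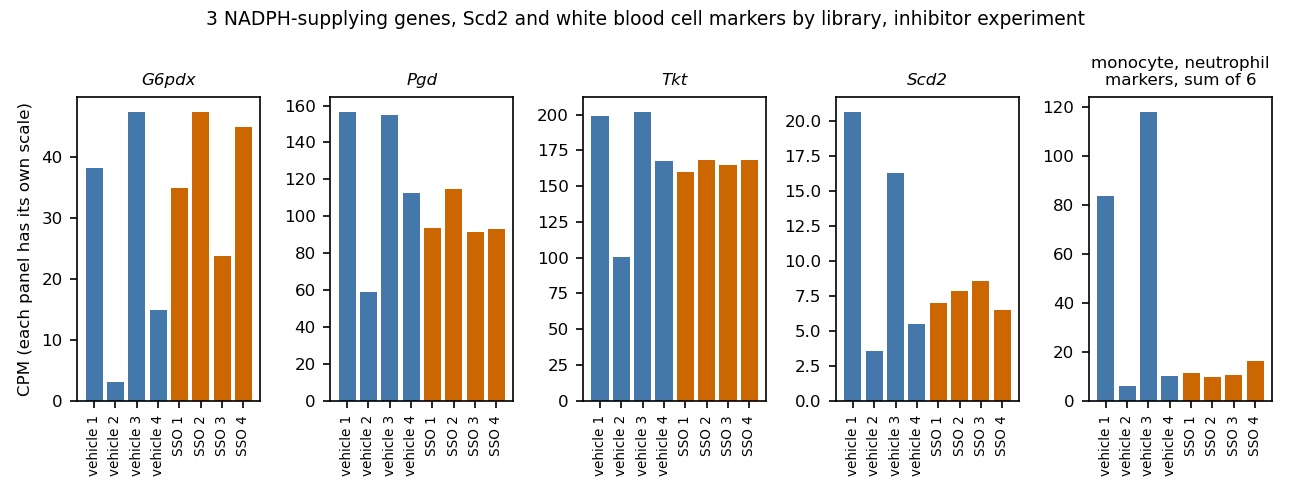
Level in CPM of G6pdx, Pgd, Tkt, Scd2 and the sum of 6 monocyte and neutrophil markers in each inhibitor library; blue bars are vehicle, orange bars SSO, and each panel has its own vertical scale from 0. Vehicle 1 and 3 are the highest vehicle libraries in every panel, and the marker sum in SSO libraries (9.79 to 16.0 CPM) is near that of vehicle 2 and 4. SSO levels of G6pdx (23.8 to 47.4 CPM) exceed vehicle 2 and 4 (3.04 and 14.9 CPM) and reach vehicle 1 and 3. In Pgd, Tkt and Scd2 every SSO library lies below vehicle 1 and 3. Markers of Kupffer cells, endothelium, stellate cells and cholangiocytes, not shown, are also high in vehicle 1 and 3.

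Tkt and Taldo1, the enzymes of the non-oxidative pentose branch, had log2 fold changes of -0.01 and 0.18 (adjusted p 0.976 and 0.597 by edgeR). Tkt measured 199, 100.1, 202 and 167 CPM in vehicle and 160.1, 168, 165 and 168 CPM in SSO, again highest in vehicle 1 and 3. Scd2, a desaturase that is low in adult hepatocytes, measured 20.7, 3.54, 16.3 and 5.48 CPM in vehicle and 7.02, 7.83, 8.59 and 6.51 CPM in SSO (log2 fold change -0.62, SE 0.48, edgeR adjusted p = 0.482), with the same 2 vehicle libraries high. In those 2 libraries the monocyte gene Ly6c2 measured 48.3 and 74.7 CPM, against 2.18 and 0.720 CPM in vehicle 2 and 4 and 1.97 to 3.72 CPM in SSO. Of the 6 monocyte and neutrophil markers 0 were called, and Retnlg was at 0 in vehicle 2. Markers of Kupffer cells, endothelium, stellate cells and cholangiocytes were also high in vehicle 1 and 3, and the part of any of these cells in the levels of G6pdx, Pgd, Tkt and Scd2 was not tested. The adipocyte list summed to 32.3 to 41.5 CPM in vehicle and 57.9 to 83.3 CPM in SSO, of which Adrb3 and Lipe took most in SSO. Of the 4 adipocyte genes tested 0 were called, and the median log2 fold change was 1.34 (-0.81 to 2.14). At an unadjusted p under 0.05 (edgeR), 2 of the 4 were higher and 1 lower, against 7.96% and 12.5% of all genes. In 2 of the 4 every SSO library lay above every vehicle library, against 6.14% of all genes. Adipoq, Lep and Retn were at 0, and Plin1 was at 0 except for 0.149 CPM in SSO 1.

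The calls depended on single libraries. The 7 called genes stayed above 0 whichever library was left out, but their groups did not overlap, which nearly fixes that direction in advance. Without vehicle 2, 17 of the 33 genes were called, all higher, and 2646 genes in all (16.2% of those tested). Without vehicle 4 the number was 10, with 364 genes called in all, and without vehicle 3 it was 4 (Aacs, Acly, Acss2 and Gpam), with 16 in all. Without vehicle 1 or without any 1 SSO library it was 0, with 0 genes called in the whole table and 15 or 16 of the 33 at an unadjusted p under 0.05, all higher, against 5.22% to 6.38% of all genes higher at that p. In an alternative chosen after seeing the data, without vehicle 1 and 3, 5 of the 33 and 62 genes in all were called. The 5 were all higher: Acly (1.57), Acss2 (2.01), Aacs (1.71), Gpam (1.44) and Thrsp (2.78, as log2 fold changes). Fasn and Elovl6 then measured 2.23 and 1.76 and did not pass (adjusted p 0.0824 and 0.125 by edgeR). Without vehicle 2 and 4, also chosen after seeing the data, 26 of the 33 were called higher and 2 lower, and 35.6% of all genes tested were called (2824 higher and 3264 lower). DESeq2 called 14 of the 33 and 1137 genes in all, or 4.25% of 26762 genes without the filter on low counts. With limma-voom, 9 of the 33 were called, and 0.412% of the 15788 filtered genes. The 2 shares are of unlike sets of genes. The 33 held no lower call with either method.

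Around the pathway, 0 of 71 tested genes of 4 further lists were called in the inhibitor experiment, with 11 higher and 8 lower at an unadjusted p under 0.05. Of all genes, 7.96% were higher and 12.5% lower at that p, so the 8 of 71 lower are near the background. The medians were 0.13 over 15 genes of SREBP and liver X receptor control, 0.02 over 15 of insulin, AMPK and glucose input, -0.05 over 27 other enzymes of fatty acid and glycerolipid synthesis, and -0.11 over 14 other NADPH genes. Insig1, a sterol-regulated brake on SREBP that is itself an SREBP target, measured 272, 475, 227 and 368 CPM in vehicle and 561, 718, 571 and 719.7 CPM in SSO (log2 fold change 0.94, SE 0.26, edgeR adjusted p = 0.111). Every SSO library of Insig1 was above every vehicle library. Igfbp1, which insulin represses, measured 154, 77.9, 119.9 and 35.8 CPM in vehicle and 37.9, 13.4, 42.9 and 27.7 CPM in SSO (log2 fold change -1.67, SE 0.47, edgeR adjusted p = 0.123), with vehicle 4 inside the SSO range. Insig2, the liver X receptor gene Nr1h3 and the insulin receptor substrate gene Irs2 had values of 0.04, -0.07 and 0.08 (0.93, 0.799 and 0.942), and their groups overlapped.

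In the diet experiment most of the 33 genes had log2 fold changes below 0 in HFD livers, and 0 passed the threshold. Of the 33, 0 were called (edgeR quasi-likelihood test over 15589 genes, of which 361, or 2.32%, were called); 8 were lower and 1 higher at an unadjusted p under 0.05, against 7.47% and 7.52% of all genes. DESeq2 called 2 lower (Acsl3 and Acss2), with 865 genes called in all, and limma-voom 0. For 2 of the 33 DESeq2 gave no adjusted p, so those could not be called by it. The median log2 fold change was -0.32, against -0.02 over all genes, and 25 of the 33 values were below 0 (21 with scaling by library size alone). In 7 genes every HFD library lay below every chow library, against 10.8% of all genes, and in 0 did every HFD library lie above, against 11.2%. Chow 1 was the highest chow library in 24 of the 33 genes, whereas it was highest in 35.1% of all genes. The 33 genes took 0.910%, 0.497% and 0.386% of the counts in chow 1 to 3 and 0.631%, 0.504% and 0.568% in HFD 1 to 3.

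**Figure D4:**
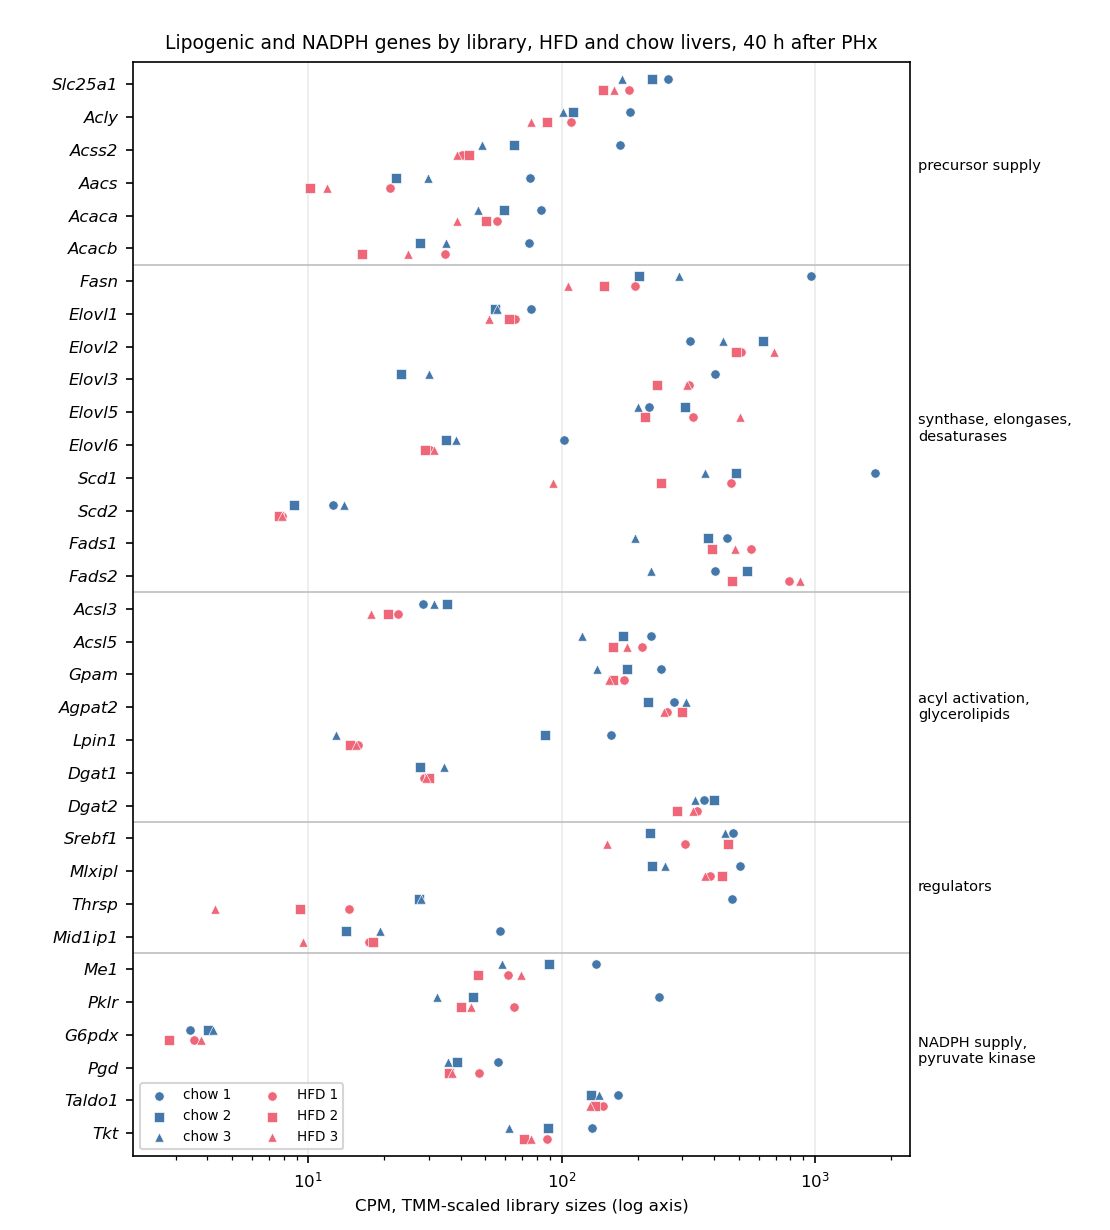
Level of each of the 33 genes (rows, grouped by role) in each library of the diet experiment, in CPM on a log axis; blue points are the 3 chow and red points the 3 HFD libraries, with a marker shape for each library number. The circle of chow 1 stands far to the right of chow 2 and 3 in Thrsp, Fasn, Scd1, Elovl3 and Pklr.

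All 6 precursor genes had values below 0 with HFD, with a median log2 fold change of -0.70 and 0 called. Acss2 measured 170.1, 65.0 and 48.6 CPM in chow 1 to 3 and 40.4, 43.2 and 38.5 CPM in HFD 1 to 3 (log2 fold change -1.22, SE 0.46, edgeR adjusted p = 0.286), and Aacs 75.2, 22.3 and 29.6 CPM in chow and 20.98, 10.2 and 11.9 CPM in HFD (log2 fold change -1.56, SE 0.53, edgeR adjusted p = 0.251). In both the groups did not overlap, and chow 1 was at least 2.54 times the next chow library. Acly measured 186, 111 and 102 CPM in chow and 109, 87.2 and 75.6 CPM in HFD (log2 fold change -0.55, SE 0.25, edgeR adjusted p = 0.345), and Acaca 82.6, 59.4 and 46.9 CPM and 55.6, 50.2 and 38.7 CPM (log2 fold change -0.39, SE 0.22, edgeR adjusted p = 0.471). The HFD values of both overlapped those of chow 2 and 3. Slc25a1 and Acacb had log2 fold changes of -0.44 and -0.85 (adjusted p 0.302 and 0.434 by edgeR).

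The chain builders went both ways, with 5 values below 0 and 5 above. Fasn measured 965, 202 and 292 CPM in chow and 196, 147 and 106 CPM in HFD (log2 fold change -1.70, SE 0.62, edgeR adjusted p = 0.277). Its groups did not overlap, and chow 1 was 3.31 times the next chow library. Scd1 measured 1724, 488 and 368 CPM in chow and 468, 247 and 92.8 CPM in HFD (log2 fold change -1.67, SE 0.82, edgeR adjusted p = 0.423), with HFD 1 inside the chow range. Elovl6 measured 102, 35.0 and 38.4 CPM in chow and 30.1, 28.8 and 31.5 CPM in HFD (log2 fold change -0.96, SE 0.42, edgeR adjusted p = 0.353). Elovl3 ran the other way in 2 of the chow libraries, at 402, 23.2 and 30.03 CPM in chow and 317, 238 and 313 CPM in HFD (log2 fold change 0.93, SE 1.13, edgeR adjusted p = 0.769). Chow 1 was 13.4 times the next chow library and above every HFD library.

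The polyunsaturated enzymes had values above 0 with HFD. Fads2 measured 402, 541 and 225 CPM in chow and 788, 471 and 869.8 CPM in HFD (log2 fold change 0.87, SE 0.34, edgeR adjusted p = 0.287); it was the 1 gene higher at an unadjusted p under 0.05. Fads1, Elovl2 and Elovl5 had log2 fold changes of 0.49, 0.29 and 0.53 (adjusted p 0.495, 0.653 and 0.481 by edgeR), and Elovl1 of -0.05 (0.93). Scd2 was low and tight in HFD, at 12.6, 8.79 and 13.8 CPM in chow and 7.86, 7.68 and 7.89 CPM in HFD (log2 fold change -0.59, SE 0.20, edgeR adjusted p = 0.203), with no overlap.

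Of the acyl and glycerolipid genes, Acsl3 came nearest to the threshold. It measured 28.5, 35.4 and 31.5 CPM in chow and 22.7, 20.7 and 17.7 CPM in HFD (log2 fold change -0.64, SE 0.14, edgeR adjusted p = 0.0577), without overlap. Lpin1 measured 156, 86.4 and 12.8 CPM in chow and 15.7, 14.7 and 15.4 CPM in HFD (log2 fold change -2.48, SE 0.84, edgeR adjusted p = 0.257). Chow 3 stood apart and was below every HFD library, while chow 1 and 2 were far above them. Gpam, Agpat2, Dgat1, Dgat2 and Acsl5 had log2 fold changes near 0, at -0.21, 0.01, -0.03, -0.20 and 0.08.

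Of the regulators, Thrsp had the lowest log2 fold change of all 33 genes. It measured 472, 27.3 and 28.0 CPM in chow and 14.5, 9.31 and 4.28 CPM in HFD (log2 fold change -4.23, SE 1.41, edgeR adjusted p = 0.251), without overlap, and chow 1 was 16.8 times the next chow library. Mid1ip1 measured 57.3, 14.1 and 19.3 CPM in chow and 17.4, 17.9 and 9.54 CPM in HFD (log2 fold change -1.01, SE 0.58, edgeR adjusted p = 0.491), with chow 1 again the highest and HFD 1 and 2 between chow 2 and 3. Srebf1 measured 476, 223 and 439.6 CPM in chow and 308, 453 and 151 CPM in HFD (log2 fold change -0.32, SE 0.44, edgeR adjusted p = 0.798), and Mlxipl 506, 228 and 257 CPM and 384, 431 and 368 CPM (log2 fold change 0.26, SE 0.29, edgeR adjusted p = 0.742). The groups of both factors overlapped.

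The NADPH genes and pyruvate kinase had 0 of 6 genes called and 6 values below 0 (with scaling by library size alone, Pgd and Taldo1 lay above 0). Pklr measured 241, 44.7 and 32.3 CPM in chow and 64.6, 40.0 and 43.7 CPM in HFD (log2 fold change -1.10, SE 0.81, edgeR adjusted p = 0.602), with chow 1 at 5.40 times the next chow library. Me1 had a log2 fold change of -0.68 (edgeR adjusted p = 0.345). Tkt, G6pdx, Pgd and Taldo1 had values of -0.27, -0.20, -0.12 and -0.09, and the interval of 2 SE on either side for Taldo1 ran from 0.773-fold to 1.15-fold. G6pdx measured 3.88 ± 0.417 CPM in chow and 3.38 ± 0.508 CPM in HFD (SD, n = 3 each), and its groups overlapped.

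Without chow 1 the diet result changed for several genes, and 4.25% of all genes were called. The median log2 fold change over the 33 genes was -0.14, with 14 values above 0 and 19 below. Elovl3 and Mlxipl were then called higher in HFD, at log2 fold changes of 3.45 and 0.71 (adjusted p 0.000126 and 0.0375 by edgeR), and Acsl3 lower, at -0.71 (0.0373). Across single left-out libraries the adjusted p ranged from 0.000126 to 0.918 for Elovl3, 0.0375 to 0.961 for Mlxipl and 0.0373 to 0.228 for Acsl3. Fasn measured -0.72 and Thrsp -1.55 without chow 1. Their groups did not overlap, so leaving out 1 library could hardly change their sign. Without chow 3, Lpin1 was called lower, at -2.99 (edgeR adjusted p = 0.000864, range over left-out libraries 0.000864 to 0.518).

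Of the 70 tested genes of the 4 further lists, 2 fell with HFD and 0 rose, where 0.718% of all genes fell and 1.60% rose. Insig1 measured 425, 258 and 211 CPM in chow and 128, 99.5 and 71.0 CPM in HFD (log2 fold change -1.58, SE 0.31, edgeR adjusted p = 0.0408), without overlap. Cyb5a, the cytochrome that passes electrons to the fatty acid desaturases, measured 962, 1084 and 1074 CPM in chow and 527, 577 and 659 CPM in HFD (log2 fold change -0.82, SE 0.16, edgeR adjusted p = 0.0388), also without overlap. Both were lower in all 15 alternatives, a direction that non-overlapping groups nearly fix in advance. They were called in 9 of the 15. Both calls were lost without chow 2 and without any 1 HFD library, with edgeR adjusted p up to 0.148 and 0.233. Igfbp1, Insig2, Irs2 and Nr1h3 had log2 fold changes of -1.45, 0.32, 0.31 and 0.00 (adjusted p by edgeR 0.36, 0.345, 0.837 and 0.995).

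**Figure D5:**
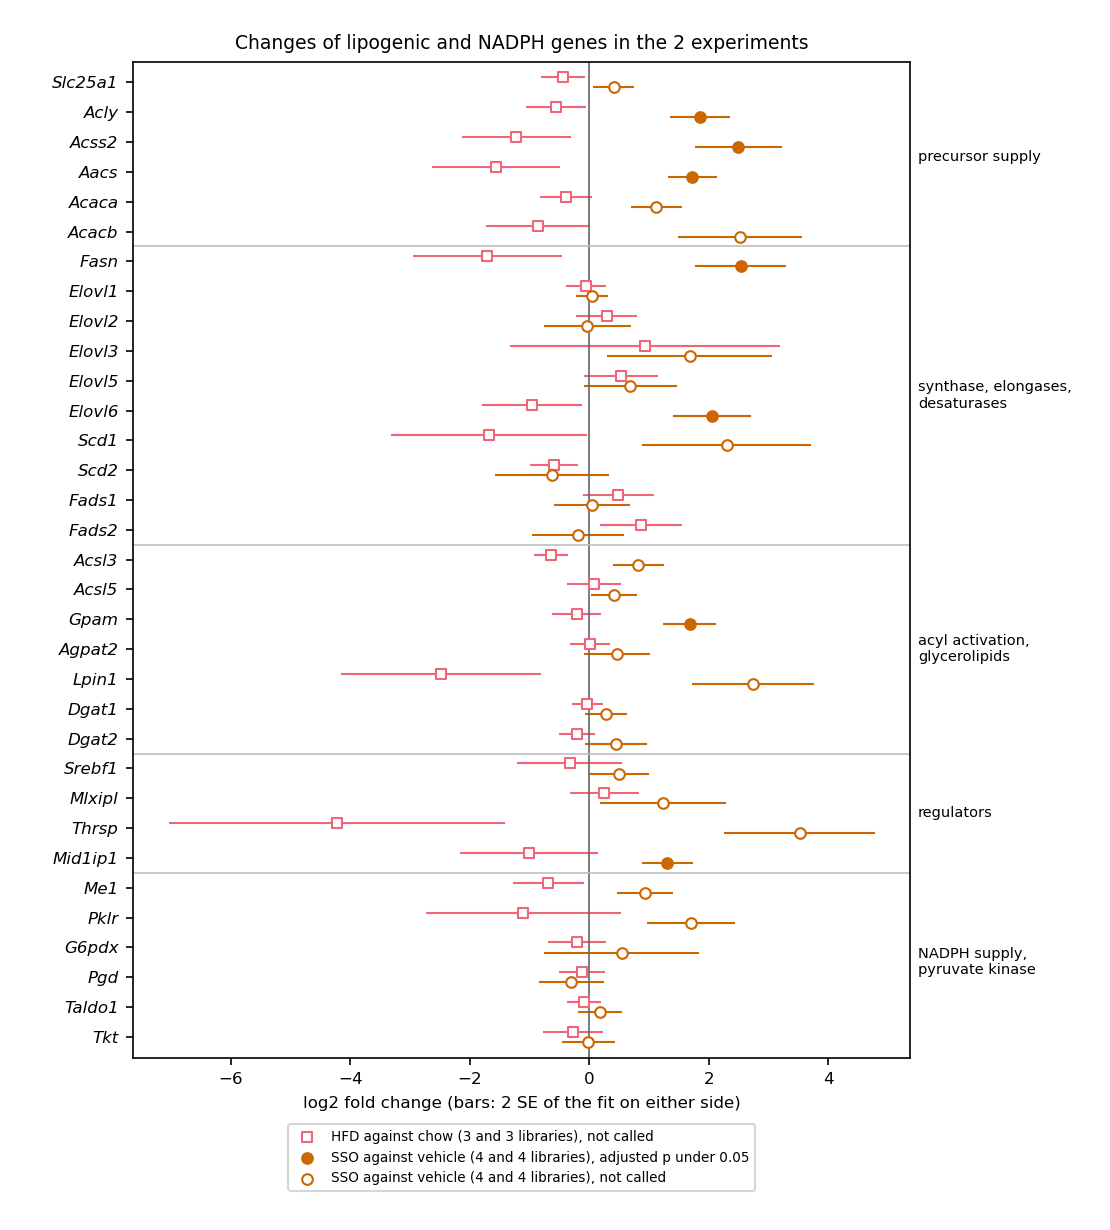
Log2 fold change of each of the 33 genes in both experiments, with bars of 2 SE on either side; red squares are HFD against chow, orange circles SSO against vehicle, and filled symbols have an adjusted p under 0.05. Thrsp spans the widest range, from -4.23 with HFD to 3.52 with SSO, and the 7 filled symbols are all SSO values above 0.

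Side by side, 22 of the 33 genes had values below 0 with HFD and above 0 with SSO, 6 were above 0 in both, 3 below 0 in both, and 2 above 0 with HFD and below 0 with SSO. Taken separately, 25 of the 33 were below 0 with HFD and 28 above 0 with SSO. Most of the 22 therefore follow from these 2 counts alone, whichever genes they hold. The experiments share no control library, but they differ in table, time after surgery and sex transcripts, and a difference between the 2 contrasts was not tested. Elovl3, Elovl5, Fads1, Acsl5, Agpat2 and Mlxipl were above 0 in both, and Scd2, Pgd and Tkt below 0 in both. The 2 that ran the other way were Elovl2 and Fads2. These counts change with scaling by library size alone, under which Elovl1, Dgat1, Pgd and Taldo1 lay above 0 with HFD, and Elovl1, Fads1 and Taldo1 below 0 with SSO. They also change without chow 1. Elovl1, Gpam, Pklr, Pgd, Taldo1 and Tkt then lay above 0 with HFD, at 0.12, 0.036, 0.36, 0.11, 0.024 and 0.060. Thrsp then measured -1.55. The share of all genes with opposite signs was not counted.

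Per kilobase of exon, Scd1 had the highest mean of the 33 transcripts in SSO, at 766 ± 208 RPKM (mean ± SD, n = 4). Its vehicle mean of 155 ± 172 RPKM was also the highest but rested on vehicle 2: without that library it was 71.2 RPKM, below Fads2 at 96.4 RPKM and Taldo1 at 129 RPKM. Both of those were above Scd1 in 3 of the 4 vehicle libraries. Thrsp went from 40.5 ± 34.0 to 466 ± 132 RPKM, which placed it second in SSO, ahead of Mlxipl at 266 ± 57.6 and Fasn at 248 ± 109 RPKM. The spreads of Mlxipl and Fasn overlapped. Acaca, the committed step, was low in both groups, at 3.71 ± 0.953 and 8.07 ± 1.40 RPKM over a union exon length of 17074 bases. That length adds all annotated exons of a gene together, so ranks between genes depend on it. In the diet experiment Fads2, at 215 ± 63.9 RPKM, headed the HFD libraries, and Scd1, at 176 ± 153 RPKM, the chow libraries. Without chow 1 the Scd1 mean was 87.4 RPKM, below Elovl2 at 133 RPKM and Agpat2 at 124 RPKM. Elovl3 measured 146 ± 22.5 RPKM in HFD (n = 3) but 3.38 ± 1.09 RPKM in SSO (n = 4). These levels come from tables that were scaled separately and that also differ in time after PHx and sex transcripts. The difference between them was not tested.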

How the data were processed

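Liver RNA selected with polyT was sequenced in 6 diet and 8 inhibitor libraries, per the labels' protocols. The authors deposited whole-number read counts per Ensembl gene without normalization. Per the submitters' processing notes, HISAT2 2.2.1 with the build GRCm38, featureCounts 2.0.2, Trim Galore 0.6.1 and DESeq2 were among the tools. How strand and reads with several matching places were handled, which bears on Scd1 and Scd2, was not stated. The labels hold 1 record for each liver group, titled as replicate 3 (diet) or 4 (inhibitor), whereas the tables hold 3 and 4 columns per group. All columns were assigned to that record by letter (H, SSO, and C for the control arm of each table) and treated as separate libraries; no label names the columns one by one, so every SD and p rests on this reading.

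Each table was fitted on its own with edgeR 4.0.16 in R 4.3.3 (quasi-likelihood test, robust spread, TMM scaling, filterByExpr), with Benjamini-Hochberg adjustment over all genes tested and calls at an adjusted p under 0.05. SE is the log2 fold change divided by the root of its F statistic. CPM errors are the SD between libraries; RPKM is CPM per kilobase of union exon length in GENCODE M21, and a reference table of gene names gave symbols for 55141 of the 55487 identifiers. Exon overlap of over 3% with another gene was checked, and given where over 9% for a gene the results turn on. No library pair agreed within sampling noise.

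Alternatives were the size factors of DESeq2, library size alone, no filter, at least 1 CPM in every library of a group, DESeq2 1.42.0, limma-voom (limma 3.58.1), no robust spread, no mitochondrially encoded genes, a replicate block and leaving out each library. The procedure was also run on simulated counts drawn independently for each gene, which hold no split like that among the vehicle libraries. Its outcome is not given here and is not used as support for the calls. Values per library were given for called genes, the 4 regulators, Fasn, Acaca, Acly, Scd1 and genes with an outlying library; Insig1, Insig2, Nr1h3, Irs2 and Igfbp1 were named whatever their values, 1 further gene of that rule is not reported here, and other pathway genes where called. Lpin1, Acacb, Me1, Pklr, Elovl1, Elovl3, Slc25a1, Tkt, Scd2, G6pdx, Fads2 and Acsl3 were given in more detail after their values were seen. The 33 genes, the lists and the tests were chosen with earlier results of these data known. The macrophage and single-cell files are not used here.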

Additional observations from a re-analysis of the deposited data

Results flagged for a closer look

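Of 66 groups of 4 libraries tested (33 genes, vehicle and SSO), 3 held 1 library far from the rest by Dixon's criterion; chance gives about 1 in 20 groups. Elovl6 measured 101 CPM in vehicle 2, against 41.8 to 47.0 CPM in the other vehicle libraries. Aacs measured 236 CPM in SSO 2, against 146 to 161 CPM in the other SSO libraries. Pgd measured 115 CPM in SSO 2, against 91.6 to 93.7 CPM. The diet groups, with 3 libraries each, were not tested in this way.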

How the results depend on the processing

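The 7 genes called with SSO (Acly, Acss2, Aacs, Fasn, Elovl6, Gpam and Mid1ip1) kept their direction in all 19 alternatives. Their groups did not overlap, which nearly fixes that direction in advance. Their calls were kept with the size factors of DESeq2 in edgeR (7 of the 33 called), without mitochondrially encoded genes (7), with no filter (8), with a minimum of 1 CPM (8), without robust spread (9), with limma-voom (9) and with scaling by library size alone (10). DESeq2 called 14 of the 33. Leaving out 1 library gave 0 to 17 called higher. Among alternatives added after seeing the data, leaving out vehicle 1 and 3 gave 5, and leaving out vehicle 2 and 4 gave 26 higher and 2 lower. In the diet experiment, against 0 called, the number lower was 1 with no filter and 2 with DESeq2, which gave 2 of the 33 no adjusted p. Leaving out 1 library there gave 0 to 1 lower and 0 to 2 higher.

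Over all genes, the diet calls of 249 higher and 112 lower became 399 and 273 with no filter and 495 and 370 with DESeq2, 60 lower with library size alone, and 76 to 415 higher and 10 to 266 lower when leaving out 1 library. The inhibitor calls of 50 higher and 21 lower became 33 and 4 with library size alone, 104 and 101 with no filter, 427 and 710 with DESeq2, 9 lower with limma-voom, 0 to 1138 and 0 to 1508 when leaving out 1 library, 13 lower without vehicle 1 and 3, and 2824 and 3264 without vehicle 2 and 4. The causes were not tested.

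The same replicate numbers occur in both groups of an experiment. The deviations of same-numbered libraries correlated between -0.106 and 0.031, which shows no pairing by number. With 3 or 4 libraries per group, these correlations cannot exclude a pairing. With the number as a replicate block, 2 of the 33 genes were called lower with HFD (Aacs and Scd1) and 10 higher with SSO, and over all genes 151 higher and 55 lower with HFD and 33 higher with SSO.

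Genes that were not called changed sign as follows, on the log2 scale. Scaling by library size alone moved the median of all genes by 0.15 in the diet and -0.16 in the inhibitor experiment, and gave diet values of 0.0935 for Elovl1, 0.13 for Dgat1, 0.021 for Pgd and 0.061 for Taldo1, and inhibitor values of -0.11 for Elovl1, -0.0105 for Fads1, -0.0013 for Taldo1 and -0.0660 for Insig2. The 1 CPM minimum gave Nr1h3 -0.0054 in the diet experiment. In the inhibitor experiment limma-voom gave Elovl2 0.085 and Tkt 0.059, and the replicate block Elovl2 0.12, Fads2 0.026 and Tkt 0.035. Without vehicle 1 and 3, Scd2 measured 0.72, Fads1 -0.39, Pgd 0.19, Tkt 0.31, Insig2 -0.28, Irs2 -0.48 and Cyb5a -0.18; without vehicle 2 and 4, Elovl2 measured 0.81, Fads2 0.68, G6pdx -0.17 and Nr1h3 0.035. Leaving out 1 library, the diet ranges were Elovl1 -0.13 to 0.12, Acsl5 -0.13 to 0.31, Gpam -0.40 to 0.0364, Agpat2 -0.12 to 0.12, Dgat1 -0.0776 to 0.0796, Srebf1 -0.72 to 0.0041, Pklr -1.54 to 0.36, Pgd -0.26 to 0.11, Taldo1 -0.16 to 0.0238, Tkt -0.50 to 0.0601, Nr1h3 -0.0354 to 0.041 and Irs2 -0.0229 to 0.99. In the inhibitor experiment they were Elovl2 -0.27 to 0.31, Fads1 -0.16 to 0.41, Fads2 -0.45 to 0.28, Tkt -0.20 to 0.10, Insig2 -0.12 to 0.21, Irs2 -0.18 to 0.61 and Cyb5a -0.0066 to 0.39. The floor that a count of 0 allows, for counting error only, is 3 counts, or 0.0770 to 0.136 CPM, below every member's level.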
